A study of Arabidopsis thaliana with 12 samples.

Results

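The miR169 family, a group of plant miRNAs known for their NF-YA targets, was described in inflorescences of Arabidopsis thaliana. Its members were the 7 bins of 100 bp that carry the name of a mature miR169 (ath-miR169 followed by a letter) in the annotation column of the deposited table, out of 152484 bins in all and 369 bins that name any mature miRNA. The values were RPM (reads scaled to library depth) of small RNA from heso1-1, urt1-1 and ntp4-1 plants and from the wild type, with 3 bioreplicates in each of the 4 groups. All plants were of the Col-0 ecotype, untreated, and grown at 22 °C in a cycle of 16 h light and 8 h dark, per the labels. Each mutant is known here by 1 allele, so a difference from Col-0 cannot be assigned to the gene apart from that line. The labels do not give the number of plants behind a library.

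miRNAs are cut from a folded precursor as a duplex of a 5p and a 3p strand, and one of these strands then guides ARGONAUTE proteins to mRNAs that pair with it. miR169 pairs with a site in the mRNAs of NF-YA genes, which encode the DNA-binding subunit of NF-Y, a trimeric factor that recognises CCAAT boxes, and the family is best known for its behaviour under drought and nitrogen starvation. HESO1 and URT1 are nucleotidyltransferases that attach U residues to small RNAs lacking methylation at the 3′ end, and the series title places NTP4 in modification of the 3p and 5p strands.

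The mature 5p sequences were read from the RefSeq annotation of TAIR10.1 and are shown because most of the family differs only at its ends, with the seed (bases 2 to 8) in capitals. The whole family shares the 18-base stretch agccaaggaugacuugcc.
miR169a-5p: cAGCCAAGgaugacuugccga
miR169b-5p and miR169c: cAGCCAAGgaugacuugccgg
miR169h to miR169n: uAGCCAAGgaugacuugccug
miR169d, miR169e, miR169f-5p and miR169g-5p: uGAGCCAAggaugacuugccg
Relative to miR169a-5p, miR169b-5p carries the substitution A21G, counted from the 5′ end. The members d to g start 1 base earlier and so have the seed GAGCCAA, while all the others have AGCCAAG. The sequence of d to g has 4 exact matches in the genome, that of h to n has 7, that of b and c has 2 and that of a has 1. A 5p read of MIR169d, MIR169e, MIR169f or MIR169g therefore does not identify its gene.

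MIR169d and MIR169g also share a 38-base stretch on their 3p side, which is shown because the heso1-1 libraries differ at these precursors. Capitals mark the sequence RefSeq names miR169g-3p, and the stretch lies at chr1:20039491-20039528 in MIR169d and at chr4:11483022-11483059 in MIR169g (TAIR10.1, minus strand).
MIR169d and MIR169g 3p stretch: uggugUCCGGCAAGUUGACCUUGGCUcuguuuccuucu
MIR169d and MIR169f 3p stretch: ggcaaguugaccuuggcucug
The second stretch, of 21 bases, lies at chr1:20039500-20039520 in MIR169d and at chr3:4805714-4805734 in MIR169f, and it has 3 exact matches in the genome. In MIR169d it crosses the border between 2 bins. The table holds no read sequences, and how the authors placed reads with several matches is not given in the sources used here.

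Of 14 MIR169 genes in the reference, 7 had a member bin, and the other 7 (MIR169c and MIR169i to MIR169n) had no bin in the table used here. Bins carry no strand, so the strand given is that of the annotated gene. MIR169g (AT4G21595, minus strand, chr4:11482879-11483257) was covered by the bin chr4:11483001-11483100, which names both of its arms. MIR169f (AT3G14385, minus strand, chr3:4805684-4805850) was covered by chr3:4805701-4805800, which also names both arms and is listed as promoter of AT3G14390. MIR169d (AT1G53683, minus strand, chr1:20039463-20039616) had the member bin chr1:20039501-20039600 and a neighbouring bin, chr1:20039401-20039500, listed for the gene without a mature name. That neighbouring bin is no member, but it is described beside MIR169d because it holds the other end of the 3p stretch.

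MIR169b (AT5G24825, plus strand, chr5:8527469-8527649) was covered by chr5:8527501-8527600 with both arms. MIR169a (AT3G13405, minus strand, chr3:4358994-4359219) had the bin chr3:4359101-4359200, which names its 5p arm. MIR169e (AT1G53687, plus strand, chr1:20041518-20041734) had chr1:20041601-20041700, where only the last bases of the named miRNA fall. MIR169h (AT1G19371, minus strand, chr1:6695420-6695609) had chr1:6695501-6695600. The series title is about the 2 arms of the duplex, and 46 miRNA precursors had their arms in separate bins. None of the 4 miR169 precursors with named arms was among them, so no ratio of 5p to 3p could be formed for miR169.

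**Figure D1:**
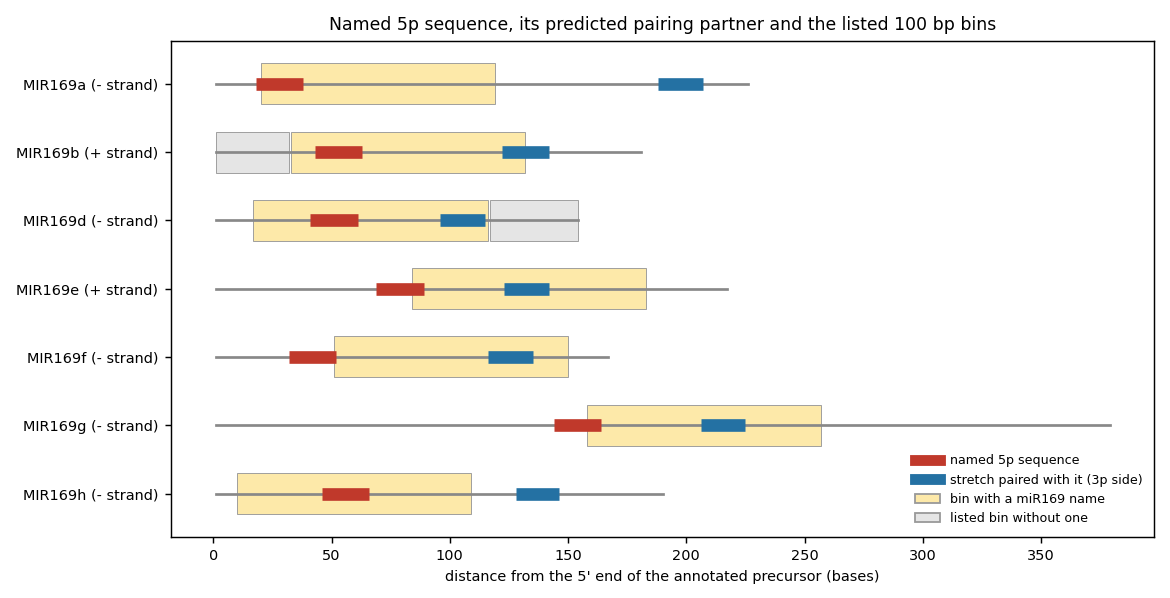
Map of the 7 precursors with a member bin, drawn 5′ to 3′ with distance in bases on the x axis. Red marks the named 5p sequence, blue the stretch predicted to pair with it, yellow the member bins and grey listed bins without a miR169 name; in MIR169d the blue stretch sits at the border of the 2 bins.

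RPM values were whole multiples of the smallest value in every library. Whole reads were claimed for 11 libraries, with implied totals of 2761330 (heso1-1 replicate 3) to 11191516 reads. The listed bins held 28.7% (ntp4-1 replicate 1) to 67.5% (Col-0 replicate 2) of the scale, and bins with a mature miRNA summed to 9719 RPM in ntp4-1 replicate 1 and to 26433 to 52604 RPM in the other 11 libraries. As signs of the makeup of the tissue, bins on the chloroplast genome summed to 25493 to 43247 RPM in heso1-1, 33253 to 49680 RPM in urt1-1, 38792 to 65588 RPM in ntp4-1 and 31129 to 42316 RPM in Col-0. The pollen miRNA miR845 averaged 1155 ± 1171 RPM in heso1-1, 1467 ± 977 RPM in urt1-1, 590 ± 285 RPM in ntp4-1 and 2003 ± 743 RPM in Col-0 (SD, n = 3 each). The other pollen miRNA listed, miR2939, differed the other way, with 4.16 ± 2.87 RPM in heso1-1, 4.67 ± 2.38 RPM in urt1-1, 0.717 ± 0.517 RPM in ntp4-1 and 0.389 ± 0.371 RPM in Col-0. It is 1 bin near the limit of detection, with at most 7.24 RPM in any library. Its value of 0.0899 RPM in Col-0 replicate 1 is 1 read. The part of these differences in the miR169 values was not tested, and in such tissue fewer cells of a type and less RNA per cell cannot be told apart.

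Summed over its 7 bins, miR169 stood at 16.2, 49.9 and 21.4 RPM in heso1-1, at 68.6, 101.7 and 32.5 RPM in urt1-1 and at 12.4, 54.7 and 46.8 RPM in ntp4-1, against 46.6, 89.5 and 60.3 RPM in Col-0. Every group overlapped Col-0. Among 185 miRNA families the mean placed miR169 at rank 44 in heso1-1, 24 in urt1-1, 31 in ntp4-1 and 26 in Col-0. As a share of all RPM in bins with a mature miRNA, the 7 bins held 0.0549%, 0.114% and 0.0448% in heso1-1, 0.214%, 0.193% and 0.123% in urt1-1, and 0.127%, 0.173% and 0.143% in ntp4-1, against 0.173%, 0.210% and 0.156% in Col-0. On this scale the 3 heso1-1 libraries lay below the 3 Col-0 libraries, and the other mutants overlapped Col-0. How many other bins did so on this scale was not determined. On the RPM scale, 12.3% of all tested bins and 4.98% of those with a mature miRNA did so in heso1-1. The 7 bins leave out the neighbouring bin of MIR169d, which held 7.58, 0 and 14.1 RPM in heso1-1 and 0 RPM elsewhere. With the unnamed bins of MIR169b and MIR169d added, the log2 ratio of summed means in heso1-1 was -0.84 instead of -1.17.

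MIR169g was the highest member in 11 of the 12 libraries. Its bin held 49.7%, 66.0% and 0% of the RPM of the 7 bins in heso1-1, 73.1% to 83.5% in urt1-1 and 75.0% to 86.2% in ntp4-1, against 78.8% to 85.5% in Col-0. MIR169f came next in those 11, and the other 5 bins reached at most 3.98 RPM. The neighbouring bin of MIR169d is not counted here. In heso1-1 replicates 1 and 3 it stood at 7.58 and 14.1 RPM, against 7.13 and 12.0 RPM for MIR169f.

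**Figure D2:**
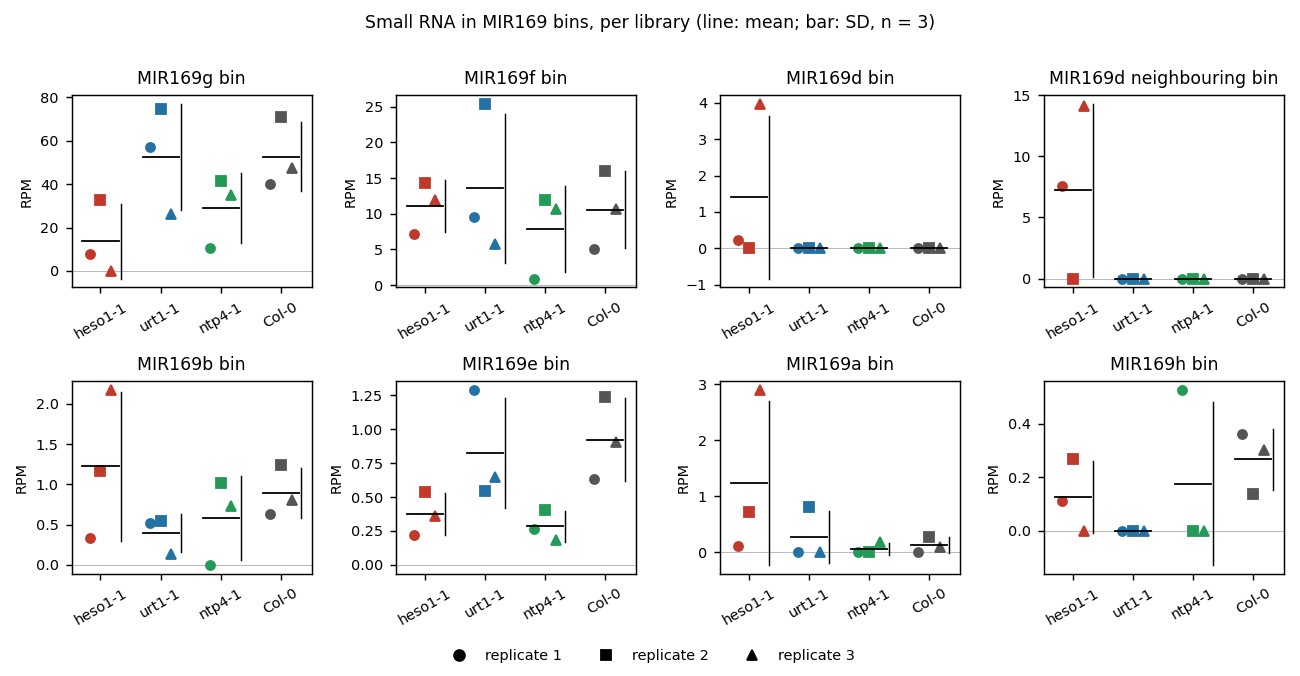
RPM of each MIR169 bin (y axis) in the 4 groups (x axis); points are libraries, the line is the mean and the bar the SD of 3 libraries. MIR169g was at 0 to 32.9 RPM in heso1-1 and at 39.8 to 70.7 RPM in Col-0, and the 2 MIR169d bins had values in heso1-1 only.

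The comparison of heso1-1 with Col-0 asks whether miR169 levels depend on this uridylyltransferase. The MIR169g bin was lower in heso1-1 in every library, but the difference did not pass the test. It stood at 8.02, 32.9 and 0 RPM in the heso1-1 libraries, against 39.8, 70.7 and 47.5 RPM in Col-0. These groups did not overlap, as in 12.3% of the tested bins where heso1-1 lay below Col-0, with means of 13.6 ± 17.1 RPM in heso1-1 and 52.7 ± 16.1 RPM in Col-0 (SD, n = 3 each). The log2 fold change was -3.31 (SE 1.12) on the log2(RPM + 0.5) scale, with an adjusted p of 0.775 (limma, Benjamini-Hochberg over 43648 bins). It was the lowest fold change of the 261 tested bins with a mature miRNA, and without heso1-1 replicate 3 it was -1.61 (adjusted p = 1.00, limma).

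The library at 0 was the shallowest, and 3 of its reads correspond to 1.09 RPM. Among 56 mature miRNA bins with at least 5 RPM in each of the other 11 libraries, MIR169g was the only one listed at 0 in heso1-1 replicate 3. By the same minimum 1 of 54 such bins, that of miR447b, was listed at 0 in Col-0 replicate 2, and none in the other 10 libraries. Among all 3106 bins with at least 5 RPM in each library other than heso1-1 replicate 3, 9 were listed at 0 in heso1-1 replicate 3.

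Reads at MIR169d were found in the same genotype. The MIR169d member bin stood at 0.223, 0 and 3.98 RPM in heso1-1 and at 0 in the 9 libraries of urt1-1, ntp4-1 and Col-0. The neighbouring bin stood at 7.58, 0 and 14.1 RPM in heso1-1 and again at 0 in the other 9 libraries. These values are 2, 0 and 11 reads in the member bin and 68, 0 and 39 reads in the neighbouring bin of heso1-1. The reads at MIR169d were thus in the replicates where MIR169g was lowest, and heso1-1 replicate 2 had none. The neighbouring bin passed the filter on low values only through heso1-1, the group where it had reads, and its test there (adjusted p = 0.775, limma) supports nothing about it.

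The values do not show whether these reads lie in the 3p stretches that MIR169d shares with MIR169g and MIR169f. Most of them were in the neighbouring bin, outside the miR169g-3p match, and the rule that puts a read in a bin is unknown. Which precursor they came from therefore cannot be told. The sum of MIR169d and MIR169g was examined as a choice made after the values were seen. The summed MIR169d and MIR169g bins gave 15.8, 32.9 and 18.1 RPM in the heso1-1 libraries, against 39.8, 70.7 and 47.5 RPM in Col-0. The heso1-1 libraries still lay below every Col-0 library. The log2 fold change of the sum was -1.26 (SE 0.44), with an adjusted p of 0.775 (limma), and it ranked 9th lowest among the 261 mature miRNA bins. With MIR169f added, the sum was 23.0, 47.2 and 30.1 RPM in the heso1-1 libraries, against 45.0, 86.6 and 58.2 RPM in Col-0. These groups overlapped, and the log2 fold change was -0.92 (SE 0.44, adjusted p = 0.775, limma).

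**Figure D3:**
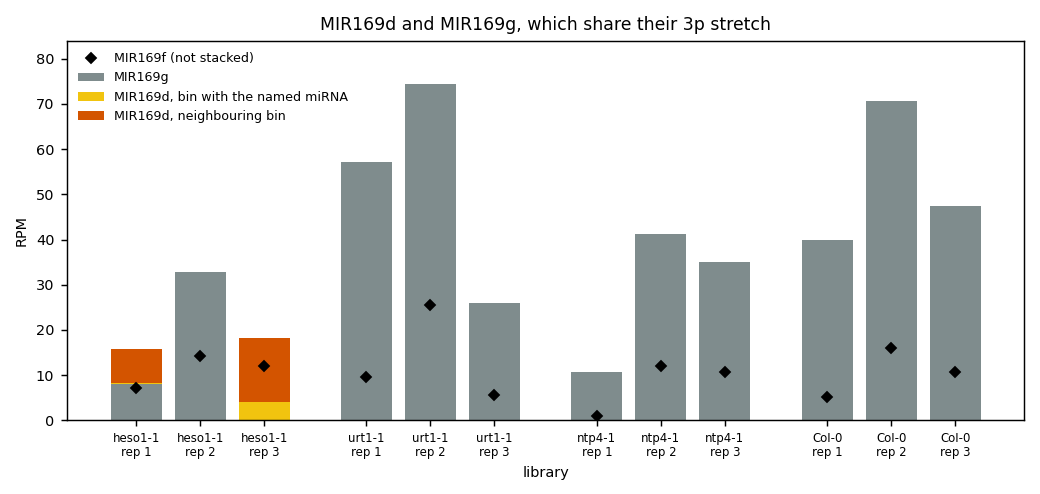
Stacked RPM (y axis) of MIR169g and the 2 MIR169d bins in each of the 12 libraries (x axis), with MIR169f as diamonds. The stacked total was 15.8 to 32.9 RPM in heso1-1 and 39.8 to 70.7 RPM in Col-0.

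MIR169f encodes the same 5p sequence as MIR169g. It stood at 7.13, 14.3 and 12.0 RPM in the heso1-1 libraries, against 5.12, 15.9 and 10.7 RPM in Col-0. The values overlapped, and the log2 fold change was 0.15 (SE 0.50, adjusted p = 0.984, limma). Within a library the MIR169d and MIR169g sum was 2.22, 2.30 and 1.52 times MIR169f in the heso1-1 libraries, against 7.77, 4.44 and 4.46 times in Col-0. That ratio is unchanged by scaling to library depth, was chosen after the values were seen and is given without a test. It depends on how reads matching several of these precursors were placed, which is unknown. In heso1-1 replicate 3, 33 reads of MIR169f lie behind it.

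In heso1-1 the tested miR169 bins were MIR169g, MIR169f and MIR169b, the last of which passed the filter only through heso1-1. Of these 3, 0 were called by limma, where the background was 0.0527% of all tested bins. An unadjusted p under 0.05 was found for 1 of the 3. It was also found for 2708 of all 43648 tested bins and 25 of the 261 mature miRNA bins. edgeR and DESeq2 on whole reads, without Col-0 replicate 3, also called 0. Over all 7 bins without a filter on low values, MIR169g and MIR169e lay below every Col-0 library, against 9% of all bins. The median log2 fold change was -0.23 over all tested bins and 0.12 over mature miRNA bins. Same-numbered libraries of these groups deviated together. With the replicate number as a block, 0.0321% of bins were called and none of miR169 (adjusted p = 0.184 for MIR169g, limma).

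The comparison of urt1-1 with Col-0 asks the same of a second uridylyltransferase. MIR169g stood at 57.3, 74.4 and 26.1 RPM in urt1-1, against 39.8, 70.7 and 47.5 RPM in Col-0. Both groups averaged close to the same level, 52.6 ± 24.5 RPM in urt1-1 and 52.7 ± 16.1 RPM in Col-0 (SD, n = 3 each). The log2 fold change was -0.09 (SE 0.45, adjusted p = 0.958, limma), and it was 0.38 after TMM scaling, so no direction is given. The median over all tested bins was -0.40.

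MIR169f stood at 9.54, 25.4 and 5.71 RPM in urt1-1, against 5.12, 15.9 and 10.7 RPM in Col-0. The groups overlapped; the log2 fold change was 0.22 (SE 0.59, adjusted p = 0.916, limma), and it was -0.36 without urt1-1 replicate 2. The ratio of MIR169g to MIR169f was 6.0, 2.93 and 4.57 in urt1-1, against 7.77, 4.44 and 4.46 in Col-0. Of the 2 tested miR169 bins 0 were called by limma, beside a background of 0.186%. An unadjusted p under 0.05 was found for 0 of the 2, beside 2877 of all 41906 tested bins. edgeR and DESeq2 called 0 as well. MIR169b and MIR169h lay below every Col-0 library, beside 11.6% of all bins without a filter (14.7% of the filtered bins).

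The comparison of ntp4-1 with Col-0 addresses the gene in the series title. MIR169g stood at 10.7, 41.3 and 35.1 RPM in ntp4-1, against 39.8, 70.7 and 47.5 RPM in Col-0. Its mean was lower, 29.0 ± 16.2 RPM in ntp4-1 and 52.7 ± 16.1 RPM in Col-0 (SD, n = 3 each), but ntp4-1 replicate 2 lay above Col-0 replicate 1. The log2 fold change was -1.02 (SE 0.62, adjusted p = 0.375, limma), beside a median of -0.75 over all tested bins. It was -0.42 without ntp4-1 replicate 1, -0.32 relative to the mature miRNA bins and -0.15 after TMM scaling.

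MIR169f stood at 0.922, 12.0 and 10.6 RPM in ntp4-1, against 5.12, 15.9 and 10.7 RPM in Col-0. Its low value was in replicate 1, the library with the least RPM in mature miRNA bins. The log2 fold change was -0.80 (SE 0.86, adjusted p = 0.588, limma) with that library and 0.22 without it. The ratio of MIR169g to MIR169f was 11.6, 3.46 and 3.31 in ntp4-1, against 7.77, 4.44 and 4.46 in Col-0, and 7 reads of MIR169f lie behind the first of these.

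Of the 2 tested miR169 bins in ntp4-1, 0 were called by limma, beside a background of 0.0756%. An unadjusted p under 0.05 was found for 0 of the 2, beside 7289 of all 39696 tested bins. edgeR and DESeq2 also called 0. MIR169e lay below every Col-0 library, as 18% of all bins did without a filter (28.6% of the filtered bins). Same-numbered libraries deviated together here as well. With the replicate number as a block, 27.5% of bins were called and 0 of the 2 miR169 bins. The adjusted p was then 0.0601 for MIR169g and 0.156 for MIR169f (limma). In that fit MIR169g had an unadjusted p under 0.05, as did 17209 of the 39696 tested bins.

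**Figure D4:**
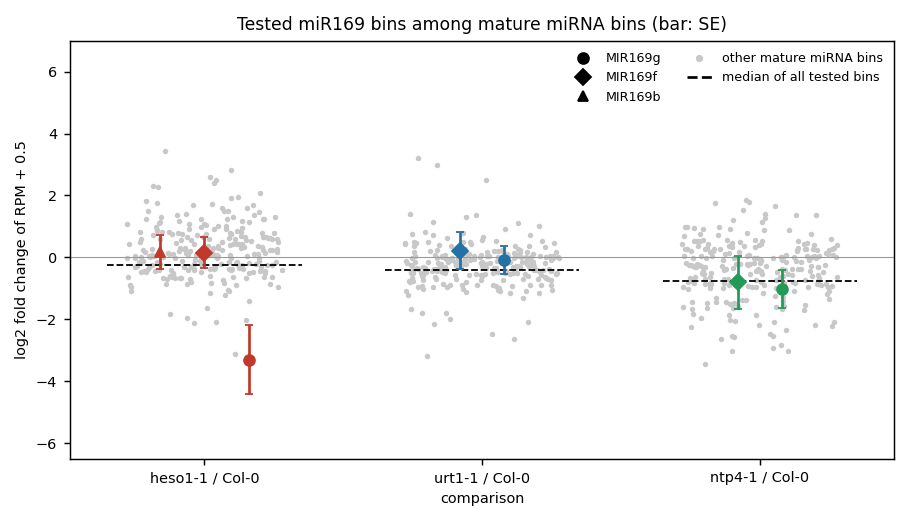
Log2 fold change of RPM + 0.5 (y axis) of the tested miR169 bins in the 3 comparisons with Col-0 (x axis), coloured, with SE as bars, among the other bins with a mature miRNA in grey; the dashed line is the median of all tested bins. MIR169g at -3.31 in heso1-1 is the lowest point of its comparison, and in urt1-1 and ntp4-1 the miR169 points lie within the grey cloud.

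The 3 comparisons share the Col-0 libraries, so their values are not independent. The difference between mutants was not tested.

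The remaining members were near the limit of detection. MIR169b stood at 0.334, 1.16 and 2.17 RPM in heso1-1, 0.516, 0.541 and 0.130 RPM in urt1-1 and 0, 1.01 and 0.731 RPM in ntp4-1, against 0.629, 1.24 and 0.804 RPM in Col-0. It passed the filter on low values in heso1-1 alone, where its log2 fold change was 0.18 (SE 0.56, adjusted p = 0.982, limma). Its mean was 1.22 RPM in heso1-1 and 0.889 RPM in Col-0. It thus passed only through the group where it was higher, and this test supports nothing about it. MIR169a stood at 0.111, 0.715 and 2.90 RPM in heso1-1, 0, 0.812 and 0 RPM in urt1-1 and 0, 0 and 0.183 RPM in ntp4-1, against 0, 0.274 and 0.101 RPM in Col-0. The heso1-1 values of MIR169a are 1, 8 and 8 reads, the highest of them in the shallowest library.

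MIR169e stood at 0.223, 0.536 and 0.362 RPM in heso1-1, 1.29, 0.541 and 0.648 RPM in urt1-1 and 0.263, 0.405 and 0.183 RPM in ntp4-1, against 0.629, 1.24 and 0.905 RPM in Col-0. In heso1-1 these are 2, 6 and 1 reads, and in ntp4-1 they are 2, 2 and 1 reads. MIR169h stood at 0 to 0.268 RPM in heso1-1, at 0 in all of urt1-1 and at 0 to 0.527 RPM in ntp4-1, against 0.137 to 0.360 RPM in Col-0. At 4 reads or fewer in each library with recovered reads, no difference in MIR169h was detectable at this depth.

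The targets can be described by sequence alone. None of the 10 NF-YA genes had a bin in its gene body in the table used here, whereas 18.6% of 27444 nuclear protein-coding genes had one, so no small RNA level is given for them. The best window for the miR169d to miR169g sequence lay 3′ of the coding sequence in 8 of the 10 genes, with 3 or 4 of its bases not in Watson-Crick pairs. The best windows in NF-YA4 and NF-YA7 had 10 and 8 such bases. The windows of 3 genes are shown from RefSeq TAIR10.1, with Watson-Crick paired bases in capitals.
NF-YA2 and NF-YA10: aGGCAAaUCAUCuUUGGCUCA
NF-YA5: CGGgAAGUCAUCCUUGGCUac
These lie at chr3:1676806-1676826 (minus strand) in NF-YA2, at chr5:1986750-1986770 (plus strand) in NF-YA10 and at chr1:20217493-20217513 (minus strand) in NF-YA5. NF-YA2 and NF-YA10 share their window, which has 2 mismatches and 1 G:U pair, and NF-YA5 has 3 mismatches. The last base of each window lies opposite the first base of the miRNA; it is paired in NF-YA2 and NF-YA10, and the last 2 bases are unpaired in NF-YA5.

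Over the 12 libraries the summed miR169 signal was compared with 100 miRNA precursors of at least 10 RPM, by the root mean square difference of log2(RPM + 0.5) after subtracting each profile's mean. The closest were miR833a and miR833b, which share 1 bin (0.540), miR8121 (0.556), miR158a (0.615) and miR5645f (0.626), beside a median of 1.08. In no case did their group means order as those of miR169 did. The miR833a and miR833b bin averaged 11.2 ± 6.27 RPM in heso1-1, 14.9 ± 5.79 RPM in urt1-1 and 14.2 ± 8.17 RPM in ntp4-1, against 12.6 ± 5.46 RPM in Col-0 (SD, n = 3 each). miR8121 averaged 10.8 ± 4.69 RPM in heso1-1, 10.5 ± 3.53 RPM in urt1-1 and 8.53 ± 5.89 RPM in ntp4-1, against 14.4 ± 6.77 RPM in Col-0. miR158a averaged 9791 ± 4159 RPM in heso1-1, 13195 ± 1832 RPM in urt1-1 and 9618 ± 6019 RPM in ntp4-1, against 9783 ± 4129 RPM in Col-0. miR5645f was at 20.8 ± 4.42 RPM in heso1-1, 18.3 ± 7.53 RPM in urt1-1 and 14.6 ± 8.83 RPM in ntp4-1, against 23.2 ± 4.56 RPM in Col-0. This likeness is a description across libraries that share depth and makeup.

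The other nutrient-responsive families with listed bins differed among themselves, and their means are given without a test. The sulfate family miR395 averaged 588 ± 394 RPM in heso1-1, 425 ± 99.4 RPM in urt1-1 and 381 ± 144 RPM in ntp4-1, against 315 ± 43.3 RPM in Col-0 (SD, n = 3 each). Of the phosphate families, miR827 averaged 42.1 ± 32.5 RPM in heso1-1, 7.62 ± 5.58 RPM in urt1-1 and 5.67 ± 5.38 RPM in ntp4-1, against 3.75 ± 2.86 RPM in Col-0. The other, miR399, had lower means in the mutants, 6.64 ± 2.67 RPM in heso1-1, 4.92 ± 1.81 RPM in urt1-1 and 1.68 ± 0.606 RPM in ntp4-1, against 10.9 ± 4.28 RPM in Col-0. Of the copper families, miR398 averaged 59.0 ± 45.3 RPM in heso1-1, 51.0 ± 20.8 RPM in urt1-1 and 29.9 ± 20.7 RPM in ntp4-1, against 21.8 ± 8.99 RPM in Col-0. The other listed copper family, miR408, was at 5.31 ± 0.643 RPM in heso1-1, 2.24 ± 1.5 RPM in urt1-1 and 2.01 ± 0.835 RPM in ntp4-1, against 1.94 ± 1.31 RPM in Col-0. For miR169 the summed mean was 29.1 ± 18.1 RPM in heso1-1, 67.6 ± 34.6 RPM in urt1-1 and 38.0 ± 22.5 RPM in ntp4-1, against 65.5 ± 21.9 RPM in Col-0.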

How the data were processed

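Small RNA of 12 inflorescence libraries was made with the NEBNext small RNA kit from TRIzol-extracted, DNase-treated RNA, per the labels' protocols. The authors deposited 1 table of RPM in 100 bp bins; the sources used here do not give the aligner, build or treatment of reads with several matches. Column headers matched the sample labels, and 0 columns of values were left unused. All 369 mature miRNA names lay at their TAIR10.1 positions. RPM values were whole multiples of the smallest value in all 12 columns (tolerance 1e-06). Whole reads were claimed for 11 of them, without Col-0 replicate 3.

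Bins averaging 1 RPM or more over the 6 libraries compared were tested on log2(RPM + 0.5) with limma 3.58.1 (trend, R 4.3.3), two-sided, Benjamini-Hochberg adjusted over all tested bins, threshold 0.05. The added 0.5 shrinks changes of low bins. A library at 0 still weighs heavily on this scale. The log2 fold change of MIR169g in heso1-1 was -3.31, against -4.10 with 0.1 added and -2.95 with 1 added. edgeR 4.0.16 and DESeq2 1.42.0 on the recovered counts were alternatives. The fit was also run on simulated data as a check of the code, which says nothing about its power in these libraries. Precursor folds came from ViennaRNA 2.7.2. Target windows were the ones in each mRNA with the lowest mismatch score, where a G:U pair counted as 0.5 of a mismatch.

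Same-numbered libraries deviated together in heso1-1 and Col-0 (correlations 0.567, 0.251 and 0.188) and in ntp4-1 and Col-0 (0.648, 0.382 and 0.321). The number was therefore also used as a block. Libraries of different numbers were not compared in this way, so a pairing is not shown, and no label states a shared batch. With 3 libraries against 3, an exact permutation test cannot go below p = 0.1. Floors cover counting error only. Every miR169 bin is accounted for, with each library's value where a group mean reached 1 RPM; the members and lists were chosen with earlier results of these data known.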

Additional observations from a re-analysis of the deposited data

How the results depend on the processing

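No miR169 bin was called under any alternative run, and the log2 fold change of MIR169g kept its sign under the 17 alternatives that keep its bin apart, in heso1-1 (-4.65 to -1.61, adjusted p 0.184 to 1.00, limma, edgeR or DESeq2) and in ntp4-1 (-1.37 to -0.15, adjusted p 0.0601 to 1.00); summed with MIR169d it was -1.26 in heso1-1, and with MIR169d and MIR169f -0.92. In urt1-1, MIR169g turned to 0.38 with TMM scaling, 0.15 relative to the listed bins, 0.27 with edgeR, 0.26 with DESeq2, 0.35 without urt1-1 replicate 3 and 0.14 without Col-0 replicate 2, and ranged down to -0.40 when single libraries were left out. MIR169f turned in heso1-1 (-0.05 without heso1-1 replicate 2, -0.27 without Col-0 replicate 1, up to 0.50 without Col-0 replicate 2), in urt1-1 (-0.36 without urt1-1 replicate 2, -0.21 without Col-0 replicate 1, up to 0.68 with single libraries left out and 0.71 with edgeR) and in ntp4-1 (0.13 with edgeR, 0.19 with DESeq2, 0.22 without ntp4-1 replicate 1, down to -1.35 without ntp4-1 replicate 2). The log2 ratio of summed means was -1.17 in heso1-1, 0.05 in urt1-1 and -0.79 in ntp4-1, and ranged over -1.80 to -0.88, -0.37 to 0.38 and -1.15 to -0.37 when single libraries were left out. With TMM it was -1.0 in heso1-1, 0.45 in urt1-1 and -0.10 in ntp4-1; relative to the listed bins -1.04, 0.25 and -0.39; relative to the mature miRNA bins -1.33, -0.02 and -0.28; and with the unnamed bins of MIR169b and MIR169d -0.84, 0.05 and -0.76. Of all bins, heso1-1 had 23 called, 12 with a pseudocount of 0.1, 93 without a filter, 5 at 5 RPM or more, 13 with TMM (3 higher and 10 lower), 14 with the replicate block, 0 with edgeR (1467 at an unadjusted p under 0.05), 114 with DESeq2 and 12 to 30 without single libraries. urt1-1 had 78 called, 46 with a pseudocount of 0.1, 152 without a filter and 14 at 5 RPM or more. It had 136 with TMM (83 higher and 53 lower) and 237 with the replicate block. With edgeR 1 was called, with DESeq2 215, and without single libraries 21 to 123. Not all of its libraries deviated together with the same-numbered Col-0 library (correlations 0.392, 0.451 and -0.285). ntp4-1 had 30 called, 2 with a pseudocount of 0.1, 143 without a filter, 6 at 5 RPM or more, 10933 with the replicate block, 652 with all 12 libraries in 1 fit, 0 with edgeR (2262 at an unadjusted p under 0.05), 192 with DESeq2 and 0 to 2924 without single libraries, the most without ntp4-1 replicate 1. The cause of these shifts was not tested. The block changed no miR169 call. Arm ratios were not run, since no miR169 precursor has its arms in separate bins, and no member bin names another miRNA family. Depth limits MIR169a, MIR169b, MIR169e and MIR169h, with 13 reads or fewer in each library whose reads were recovered, and the placement of reads shared by MIR169d, MIR169f and MIR169g is unknown.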

Other observations

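A bin beside MIR169b, chr5:8527401-8527500, lists the gene without naming a mature miRNA and is no member. It stood at 0.790, 0.608 and 0.548 RPM in ntp4-1, against 0.0899, 0.137 and 0.201 RPM in Col-0. The ntp4-1 values are 6, 3 and 3 reads, and the bin was singled out after its values were seen and is given without a test.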
